A study of Rattus norvegicus with 105 samples.

Results

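Acute phase and complement genes of the liver were followed in cultured rat hepatocytes. The 7 genes were A2m, Serpina3m, Orm1, Hp, C3, C4bpb and Hamp, chosen by symbol, of 20946 symbols on the panel. They were read by 8 probes of 22253, since A2m had 2 (A2m_35710 and A2m_7932). The other probes were Serpina3m_33119, Orm1_9400, Hp_8823, C3_8175, C4bpb_8177 and Hamp_50326. The study exposed primary hepatocytes of female Sprague-Dawley rats to 3 nitroalkanes for 24 hours and counted transcripts with TempO-Seq, in which a pair of oligonucleotides is ligated on its target RNA and the ligated products are sequenced. There were 105 libraries in 35 groups of 3.

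Set 1 held 72 libraries. Nitromethane (NM) and nitroethane (NE) were each given at 8 concentrations from 0.003 to 10 mM, in steps of about 3-fold, and 2 control groups received culture medium or the vehicle dimethyl sulfoxide (DMSO). Reference compounds were benzo[a]pyrene (BAP), an agonist of the aryl hydrocarbon receptor, at 50 µM, CITCO, an agonist of the human receptor CAR, at 10 and 20 µM, rifampin, an agonist of human PXR, at 20 and 40 µM, and WY-14643, an agonist of PPARα, at 50 µM. Set 2 held 33 libraries with 1-nitropropane (1NP) at the same 8 concentrations, its own medium and DMSO controls, and WY-14643, titled 50 µM but named 100 µM in the library names. NM, NE and 1NP have chains of increasing length. Sample titles give the nitroalkane doses in µM and the protocol in mM, which is used here, and whether these wells also held DMSO is not stated there. For the DMSO controls the titles give 0.5 µM and the protocol 0.2%. The cells came from 1 commercial lot, so the 3 libraries of a group are wells, and a p-value here rests on well-to-well spread, with no spread between animals in it. Each control shared its plate row with 1 concentration (medium with 0.003 mM, DMSO with 0.01 mM), and each concentration filled 1 row, so that treatment and plate row cannot be told apart.

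Acute phase proteins are plasma proteins whose synthesis in the liver changes during inflammation. Interleukin-6, acting through JAK kinases and STAT3, and interleukin-1, acting through NF-κB and C/EBP factors, raise their transcription. Glucocorticoids act together with these cytokines. A2m, alpha-2-macroglobulin, is a protease trap and a classical acute phase protein of the rat. Serpina3m is a serine protease inhibitor, Orm1 encodes alpha-1-acid glycoprotein, a carrier of drugs and lipids, and haptoglobin (Hp) binds free hemoglobin. C3 is the central component of the complement cascade, and C4bpb encodes a chain of C4b-binding protein, which restrains it. Hamp encodes hepcidin, the hormone that lowers iron export from cells, and it responds both to interleukin-6 and to bone morphogenetic proteins.

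The RefSeq promoter table (GRCr8) held 5 of the 7 genes, and the 250 bases before each start were searched on both strands for 4 motifs of these pathways. They were CTGGGAA (the core of the interleukin-6 response element, 9.56% of 33469 promoters), TTCNNNGAA (STAT, 7.67%), TTGCNNAA (C/EBP, 9.22%) and GGCGCC (the core of the bone morphogenetic protein response element, 8.69%). Stretches with a match are shown for 3 genes because they let the cytokine-response genes be compared letter by letter, with the matches in capitals.
Hamp: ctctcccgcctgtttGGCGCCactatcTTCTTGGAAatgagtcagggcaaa
Orm1: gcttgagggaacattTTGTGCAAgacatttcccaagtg
C3: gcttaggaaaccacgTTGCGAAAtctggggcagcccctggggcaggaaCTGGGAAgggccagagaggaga
They lie at chr1:95300365-95300415 on the minus strand (Hamp), chr5:81788371-81788408 on the plus strand (Orm1) and chr9:2201389-2201458 on the minus strand (C3), all upstream of the first exon. In Hamp the bone morphogenetic protein core stood 124 to 129 bases before the start and the STAT match 109 to 117. The Serpina3m window held none of the 4 motifs, which says only that these letters are not in that window. A2m and Hp are named only. A match is a description of letters and no evidence of binding.

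Libraries held 5475419 to 11122665 counts (median 8680678), and levels are counts scaled to 1000000 a library (CPM). The lowest count of any of the 8 probes was 15, and all 8 passed the low-count filter in every fit. Probe efficiencies differ, so levels are compared between groups and not between genes. Serpina3m and A2m belong to gene families, and the files do not show whether a relative's RNA could share a probe. A set of 6 libraries stood apart from their group (best within-group r under 0.95, or over 1.25 times the median number of probes with a count): NM 1 mM replicate 1, NM 3 mM replicate 1, NM 10 mM replicate 3, NE 0.01 mM replicate 3, NE 10 mM replicate 2 and 1NP 10 mM replicate 3. The 6 hepatocyte markers (Alb, Apoa1, Ttr, Serpina1, Cps1, Tf) had a count in every library, with Cps1 low (median 10.2 CPM), and their sum ran from 5761 to 15125 CPM. The 10 Kupffer cell genes summed to at most 7.36 CPM in all libraries but NE 10 mM replicate 2, which had 27.3. Among cholangiocyte markers Epcam, Sox9 and Krt19 were present in every library, whereas both Krt7 probes stayed at or below 1.46 CPM. These are bulk lysates, so fewer cells of a type and less RNA per cell cannot be told apart.

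Each gene had its highest and lowest level at opposite ends of a few groups. In set 1 the level of A2m_35710 ran from 1363 ± 245 CPM (SD, n = 3) with 20 µM CITCO to 53.8 ± 3.97 with 10 mM NE, a 25.3-fold range. Orm1 ran from 2123 ± 117 with 3 mM NM to 479 ± 99.5 with 10 mM NE, and Serpina3m from 55.2 ± 10.1 with BAP to 9.61 ± 1.19 with 0.3 mM NE. For Hp (138.7 ± 21.7 to 18.3 ± 6.47) and C3 (1748 ± 84.2 to 291 ± 42.5) the DMSO control was highest and 10 mM NE lowest. The DMSO control was also highest for C4bpb, at 28.4 ± 4.76 against 4.54 ± 0.703 with 0.003 mM NM, and for Hamp, at 30.3 ± 8.77 against 4.67 ± 1.32 with 0.3 mM NM. Groups next to each other in this order mostly overlapped. Of the 23 pairs of neighbours in the order of set 1, the libraries overlapped in 19 (A2m_35710), 21 (A2m_7932, Orm1 and Serpina3m), 20 (C4bpb) and 22 (Hp, C3 and Hamp). The share over all probes was not counted. Neighbours have the closest means, so these counts do not cover groups further apart. A2m_35710, for example, was at 675 to 702 CPM with 3 mM NM and at 295 to 325 CPM with 0.3 mM NE. In the order of set 2 the libraries of neighbours overlapped in 8 to 10 of 10 pairs. DMSO led that order for 7 of the 8 probes, the exception being Hamp, whose 1NP 10 mM mean of 54.1 ± 81.6 CPM rested on 1 well.

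**Figure D1:**
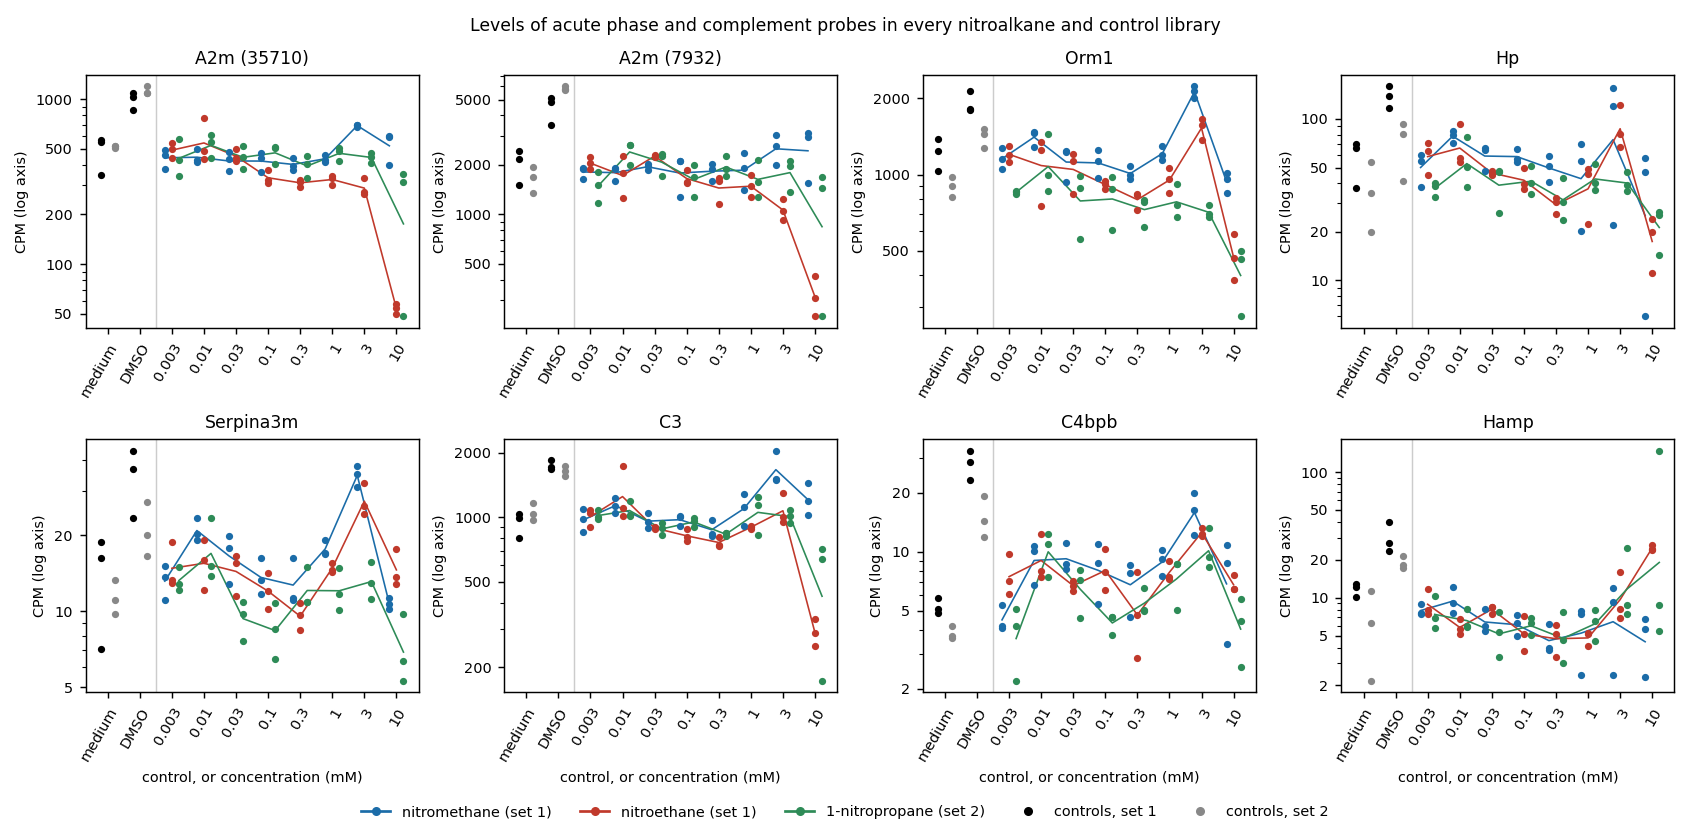
CPM of each of the 8 probes (log axis) in the medium and DMSO controls and at each nitroalkane concentration in mM, spaced evenly, with points for single libraries and lines through the geometric mean of each treated group. From 0.003 to 1 mM most points lie at the level of medium and under that of DMSO, and at 10 mM the 3 NE libraries of A2m_35710 lie at 49.7 to 57.6 CPM.

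Medium wells had less RNA of all 7 genes than DMSO wells. In set 1 the A2m_35710 level was 1038, 1085 and 856 CPM in the 3 DMSO libraries and 563, 553 and 345 CPM in medium. A2m_7932 read 4842, 5099 and 3479 CPM in DMSO and 2427, 2186 and 1502 CPM in medium. The groups did not overlap at either A2m probe, and medium was lower by -1.07 ± 0.18 and -1.18 ± 0.24 on the log2 scale (± SE, 3 libraries a group). The protease inhibitor Serpina3m stood at 43.5, 36.9 and 23.4 CPM in DMSO and 16.2, 18.9 and 7.06 CPM in medium, a difference of -1.34 ± 0.29. C4bpb, the complement inhibitor chain, had the steepest drop of the 8 probes, from 32.9, 28.8 and 23.4 CPM to 5.10, 4.89 and 5.81 CPM, a log2 difference of -2.47 ± 0.22 (edgeR adjusted p = 9.9e-09). Complement C3 went from 1844, 1713 and 1686 CPM in DMSO to 988, 1032 and 804 CPM in medium, with little spread between wells, and was lower by -0.93 ± 0.10.

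Among the carriers, Orm1 read 2142, 1791 and 1811 CPM in DMSO and 1239.9, 1376 and 1037 CPM in medium (-0.70 ± 0.13). Hp read 159.9, 139.6 and 117 CPM and 66.5, 69.7 and 37.6 CPM (-1.30 ± 0.29), the call that depended most on a single well: it ended without medium replicate 3, and leaving out 1 library at a time gave -1.46 to -1.07. Hepcidin RNA, at 27.1, 23.6 and 40.3 CPM in DMSO and 10.1, 12.8 and 12.1 CPM in medium, was lower by -1.42 ± 0.25. With edgeR's quasi-likelihood test at an adjusted p under 0.05, the call used throughout, all 8 probes were lower, where 7.06% of all probes tested were called in either direction. The groups overlapped at none of the 8 probes, and the share of all probes without overlap was not counted. The median log2 difference was -1.24 over the 8 probes and 0.01 over all probes. When only these 2 groups were fitted, 4 of the 8 were called. The hepatocyte marker sum was lower in medium too, 8066 to 10092 CPM against 13081 to 14198, and the cholangiocyte marker sum was higher, 627 to 721 against 541 to 621. Their part in the result was not tested.

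The same difference was measured again in set 2, in other wells of the same lot. C4bpb was at 14.3, 12 and 19.4 CPM in DMSO and 3.73, 3.64 and 4.21 CPM in medium (-2.08 ± 0.25), and Hamp at 18.3, 17.3 and 21.3 CPM and 11.4, 6.25 and 2.18 CPM (-1.61 ± 0.33). A2m_35710 was at 1203, 1095 and 1095 CPM and 518, 508 and 519.6 CPM, with the 2 groups far apart (-1.23 ± 0.11). A2m_7932 (-1.91 ± 0.14), C3 (-0.72 ± 0.13), Orm1 (-0.74 ± 0.13) and Serpina3m (-0.99 ± 0.23) were lower as well. Hp overlapped between the groups, at 80.7, 41.5 and 92.8 CPM in DMSO and 53.9, 34.5 and 20.0 CPM in medium, and missed the call (-1.09 ± 0.37, adjusted p = 0.061). That made 7 of 8 probes lower in set 2, against 24% of all probes called. A test of whether the medium to DMSO difference itself differed between the sets called none of the 8 (1 at an unadjusted p under 0.05, A2m_7932, with -0.74 ± 0.24, and none with DESeq2), and 1.03% of all probes.

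**Figure D2:**
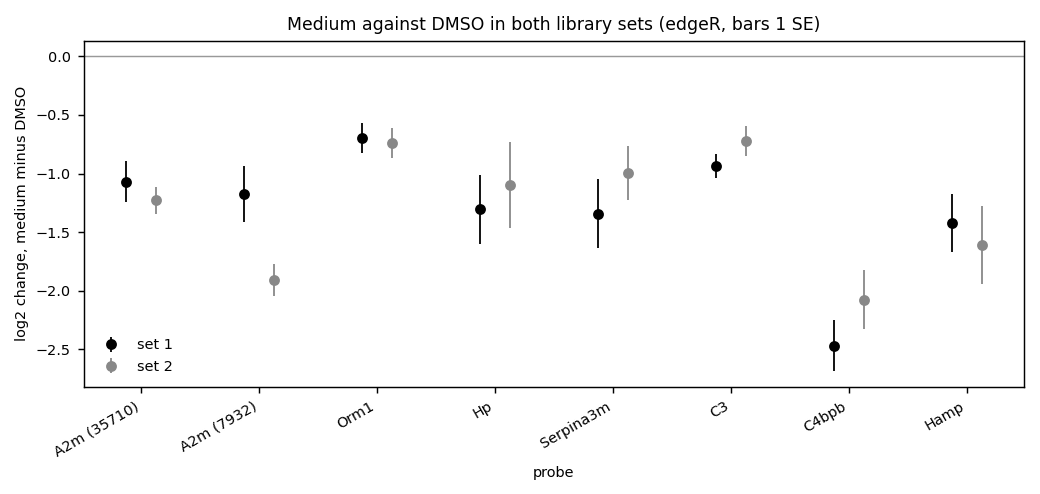
Log2 difference of medium from DMSO in set 1 and set 2 for each of the 8 probes, with SE bars. All 16 points lie under 0, with C4bpb at -2.47 and -2.08 and Hp at -1.30 and -1.09, the latter not called.

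The rest of the pathway was lower in medium in part, against 7.06% of all probes called in set 1. Of 23 probes to other acute phase proteins tested in set 1, 15 fell and 2 rose (median -1.05). The fibrinogen chains Fga (-1.91) and Fgb (-1.70) and the macroglobulin-like Mug2 (-1.88) were lower, and the endotoxin co-receptor Cd14 (0.55) and the siderophore binder Lcn2 (0.41) were higher. Of 24 probes to other complement genes 8 fell and 0 rose, led by the terminal component C6 (-1.87), the lectin Mbl1 (-1.58) and its protease Masp2 (-1.48). Negative acute phase proteins, which fall in inflammation, were also lower, in 5 of 7 probes, for example retinol-binding protein Rbp4 (-1.50) and transferrin Tf (-0.79). Among interleukin-6 and interleukin-1 signalling genes 6 of 18 fell and none rose, with the interleukin-1 receptor antagonist Il1rn at -0.82 and the NF-κB inhibitor Nfkbia at -0.80. Of 10 probes to hepcidin regulators 2 fell, the co-receptor Hjv (-1.57) and the transferrin receptor Tfrc (-0.46). In set 2, where 24% of all probes were called, the same 5 lists, of 23, 24, 7, 18 and 10 probes tested, had 16, 13, 4, 8 and 3 probes that fell and 1, 2, 0, 0 and 0 that rose. The hepcidin regulators were thus near the share of all probes there.

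From 0.003 to 1 mM most nitroalkane groups were more like medium than like DMSO by the calls, so the 2 controls gave different answers. At 0.01 mM, in the plate row of DMSO, the calls against DMSO were fewest for each compound, with 0 for 1NP. Row and concentration cannot be told apart there. Against DMSO, 7, 4, 7, 7, 7 and 7 of the 8 probes were lower with NM at the 6 concentrations from 0.003 to 1 mM, in rising order, where 3.88%, 1.01%, 1.77%, 2.03%, 3.14% and 2.05% of all probes were called. With NE 8, 6, 8, 8, 8 and 8 were lower, with 2.97%, 2.68%, 2.68%, 3.44%, 5.29% and 2.81% of all probes called. No member was higher than DMSO in any of these groups. The drop was deepest for Hamp (-2.73 to -1.70 for NM and -2.73 to -1.81 for NE over the 6 concentrations) and C4bpb (-2.69 to -1.64 and -2.54 to -1.56). It was shallower for C3 (-1.03 to -0.65 and -1.30 to -0.34) and Orm1 (-0.96 to -0.47 and -1.36 to -0.74). A2m_35710 kept to -1.34 to -1.18 with NM and -1.78 to -0.72 with NE. Hp had -1.59 to -0.85 with NM and was called at none of the 6 concentrations. Without the NM libraries that stood apart all 8 probes, Hp included (-1.50 to -0.86), were called lower at each of the 6, with 676 to 1361 of all probes called against 124 to 474 with them.

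Against medium none of the 8 probes was called by edgeR with NM at these 6 concentrations (0, 3, 1, 1, 1 and 2 at an unadjusted p under 0.05), with 0% of all probes called up to 0.3 mM and 0.00818% at 1 mM. With NE none was called either (0, 3, 0, 4, 6 and 3 at an unadjusted p), where 0%, 0.0162%, 0%, 0%, 0.0324% and 0.219% of all probes were. DESeq2 called none with NM and 1 lower probe with NE at each of 0.3 and 1 mM. Without the libraries apart edgeR called 1 lower with NM at 0.3 mM, and 2 lower with NE at each of 0.3 and 1 mM. In these 3 comparisons 16, 18 and 149 of all probes were then called. Hamp lay at or under medium throughout (-1.30 to -0.26 with NM and -1.30 to -0.38 with NE), while C4bpb lay mostly above (-0.21 to 0.84 and -0.06 to 0.92), with no call. Comparisons with DMSO share the 3 DMSO libraries of the set, and those with medium share the 3 medium libraries, so the concentrations are not independent repeats.

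In set 2, 7, 0, 2, 4, 3 and 2 probes were lower with 1NP than with DMSO from 0.003 to 1 mM, where 20%, 0.405%, 1.02%, 5.09%, 1.02% and 1.49% of all probes were called. At 0.01 mM 3 probes had an unadjusted p under 0.05 and DESeq2 called none. Without the library that stood apart in this fit, 1NP 10 mM replicate 3, the counts were 8, 4, 7, 7, 8 and 7. The number of all probes called went up with them, from 2414, 49, 124, 616, 124 and 180 to 3451, 189, 464, 1585, 416 and 789. C4bpb was lower by -2.06 to -0.62 and A2m_7932 by -2.07 to -1.33. Against medium no probe was called at these concentrations (0, 3, 1, 0, 0 and 1 at an unadjusted p), and DESeq2, and edgeR without that library, called 1 higher at 0.01 mM. Of all probes 0.00824%, 0.19%, 0%, 0.0165%, 0% and 0.066% were called. Without that library 283 of all probes were called at 0.01 mM, against 23 with it. C4bpb lay above medium at each of these concentrations (0.04 to 1.49).

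**Figure D3:**
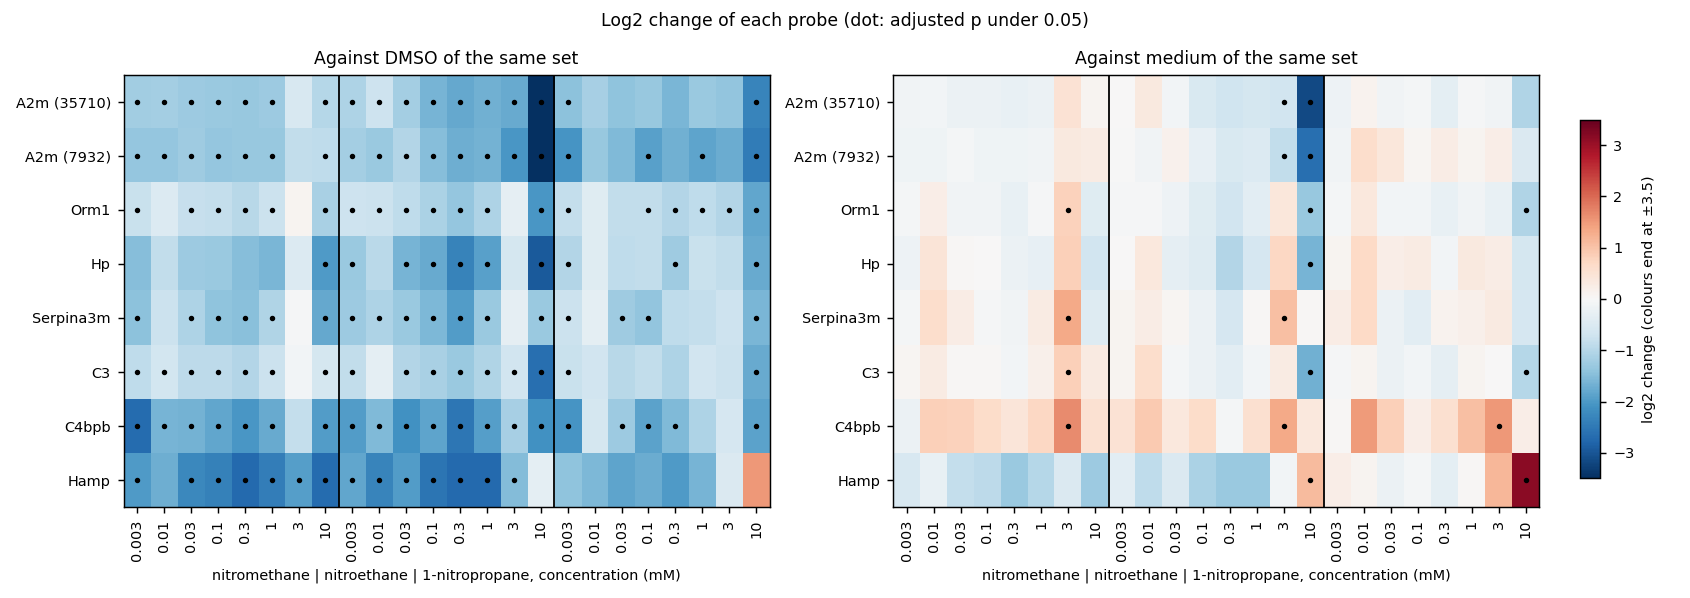
Colour maps of the log2 difference of each nitroalkane group (columns, concentration in mM) from DMSO and from medium of its own set for the 8 probes (rows), with a dot at an adjusted p under 0.05 and colours that end at ±3.5. From 0.003 to 1 mM the differences from DMSO are negative, and those from medium have medians of -0.11 (NM), -0.15 (NE) and 0.07 (1NP). Against medium Hamp is lower throughout with NM and NE, and C4bpb higher throughout with 1NP, without a call. Only at 3 and 10 mM do probes leave the medium level by an adjusted p under 0.05.

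At 3 mM NM several members were higher than in medium. The C3 level was 2049, 1498 and 1516 CPM in the 3 NM libraries against 988, 1032 and 804 CPM in medium, without overlap (0.85 ± 0.13, adjusted p = 0.00059). C4bpb was at 12.2, 16.4 and 20.1 CPM (1.64 ± 0.35), Serpina3m at 35.1, 31.2 and 37.9 CPM (1.31 ± 0.25) and Orm1 at 2133, 2001 and 2234 CPM (0.81 ± 0.14), each above all 3 medium wells. Hp split, with 22.0, 120.1 and 156 CPM, the low value being the library that stood apart, and missed the call (0.82 ± 0.58), but without it was higher by 1.29 with a call. Without the libraries apart 545 of all probes were called, against 284 with them. A2m_35710, at 699, 702 and 675 CPM, had 0.52 ± 0.18 and no call, and Hamp, at 2.41, 9.26 and 11.9 CPM, -0.51 ± 0.44. Thus 4 probes rose and none fell, where 2.32% of all probes were called. With only the 2 groups fitted none of the 4 was called, and over all NM concentrations no member was called higher than medium and 1 was called lower.

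Against DMSO the same wells had 1 call, Hamp lower by -1.94 ± 0.45, where 0.679% of all probes were called. That call ended without any 1 of the 3 DMSO libraries or NM replicates 1 and 2 (-2.36 to -1.52). The other pathway genes at 3 mM NM moved up from medium in part, against 2.32% of all probes called: 6 of 23 acute phase probes rose and 0 fell, with Mug2 (2.37), the hyaluronan-binding inhibitor chain Itih3 (1.55) and Mug1 (1.25) leading. Of 24 complement probes 5 rose and 0 fell, led by Mbl1 (1.90), factor B, Cfb (1.61), and Masp2 (1.23). The hepatocyte marker sum was 13496 to 15125 CPM at 3 mM NM, above medium, and its part was not tested.

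At 10 mM NM no member was called against medium. The group means of Serpina3m, Orm1, Hp and Hamp were below those of medium and the means of C3, C4bpb and both A2m probes above. Serpina3m was at 10.6, 10.2 and 11.3 CPM, Orm1 at 1013, 959.6 and 848 CPM and Hamp at 6.77, 5.59 and 2.34 CPM, while C3 was at 1191, 1027 and 1447 CPM. Against DMSO all 8 were lower (7.19% of all probes called), from -0.63 for C3 to -2.70 for Hamp. The Hp call (-1.99) ended without any 1 of the 3 DMSO libraries or NM replicates 2 and 3 (-2.46 to -1.48), and that of A2m_7932 (-0.90) without DMSO replicate 1 or 2 or NM replicate 3 (-1.09 to -0.62). Against medium edgeR and DESeq2 called none (3 at an unadjusted p under 0.05), and 0.662% of all probes were. Without the libraries apart Hamp was called lower than medium (-0.94), with 275 of all probes called against 81 with them. Against the 4 lowest NM concentrations, a comparison within the treated wells, Serpina3m (-0.61 ± 0.16) and Orm1 (-0.39 ± 0.10) fell, where 4.89% of all probes were called. Both calls depended on single wells: Serpina3m ended without any 1 of the 3 NM 10 mM libraries (-0.66 to -0.58), and Orm1 ended in 9 of 15 cases (-0.46 to -0.29). These 9 were NM 10 mM replicates 2 and 3, 0.003 mM replicates 1 and 3, 0.01 and 0.03 mM replicates 1 and 2, and 0.1 mM replicate 2. Without the libraries apart both A2m probes were called higher (0.43 and 0.69), Serpina3m was lower (-0.64) and Orm1 was not called (-0.30). In that refit 804 of all probes were called, against 596 with those libraries in. The log2 slope over the 8 NM concentrations was called for none by edgeR or DESeq2 (4 at an unadjusted p), with 9.88% of all probes called. Cholangiocyte markers summed to 817 to 1214 CPM at 10 mM NM, above medium, and their part was not tested.

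NE parted the members at 3 mM. C4bpb, at 13.2, 12.4 and 12.1 CPM, and Serpina3m, at 24.3, 26.1 and 32.3 CPM, were higher than in medium by 1.33 ± 0.28 and 1.05 ± 0.25, with every NE well above every medium well. A2m_35710, at 274, 265 and 333 CPM, and A2m_7932, at 1247, 1045 and 919 CPM, were lower by -0.67 ± 0.21 and -0.85 ± 0.23, where 11.5% of all probes were called. The A2m calls depended on single wells. That of A2m_35710 ended without medium replicate 1 or 2 or NE replicate 1 or 2 (-0.87 to -0.55), and that of A2m_7932 without medium replicate 1 or NE replicate 2 or 3 (-1.04 to -0.71). Against DMSO 5 probes were lower (6.08% of all probes), both of A2m (-1.76 and -2.05), C4bpb (-1.16), Hamp (-1.52) and C3 (-0.67), the last ending without 5 of the 6 libraries, all but NE replicate 3 (-0.82 to -0.59). In these wells the hepatocyte marker sum was 10363 to 13737 CPM, above the 8066 to 10092 of medium, and the cholangiocyte marker sum 303 to 350.2 CPM, below the 627 to 721 of medium. Their part was not tested.

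At 10 mM NE alpha-2-macroglobulin RNA fell to its lowest group mean of the study while hepcidin RNA rose above medium. A2m_35710 was at 57.6, 49.7 and 54.3 CPM against 563, 553 and 345 CPM in medium, a difference of -3.17 ± 0.23 (adjusted p = 4.5e-11). A2m_7932, at 419, 239 and 309.5 CPM, was lower by -2.63 ± 0.24. The 3 wells lay close together at the first probe and spread more at the second, and no NE well reached the lowest medium well. The other secreted proteins fell less: C3, at 335, 249.9 and 289.6 CPM, by -1.68 ± 0.21, Hp, at 19.8, 11.2 and 23.9 CPM, by -1.63 ± 0.34, and Orm1, at 583, 385 and 468 CPM, by -1.33 ± 0.19. C4bpb, at 6.44, 7.59 and 6.44 CPM, and Serpina3m, at 12.9, 17.7 and 13.6 CPM, differed from medium by 0.36 ± 0.28 and 0.05 ± 0.25, with no call. Hamp, at 26.2, 24.0 and 24.5 CPM in wells that hardly differed, stood above every medium well (10.1, 12.8 and 12.1 CPM) and was higher by 1.10 ± 0.28.

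In all, 5 of 8 probes fell and 1 rose against medium, where 34% of all probes were called. Against DMSO 7 fell (28.9% of all probes), from -1.30 ± 0.21 for Serpina3m to -4.26 ± 0.22 for A2m_35710, and Hamp did not differ by the test (-0.33 ± 0.28). Within the NE wells, 10 mM against the 4 lowest concentrations gave -3.11 ± 0.20 and -2.58 ± 0.21 for the A2m probes, -1.79 ± 0.18 for C3, -1.54 ± 0.29 for Hp, -1.17 ± 0.16 for Orm1 and 1.82 ± 0.21 for Hamp, all called, where 40.1% of all probes were. The slope over concentrations, per step on the 8-step scale, was called for A2m_35710 (-0.29), A2m_7932 (-0.26), C3 (-0.13) and Hamp (0.18), with 26.1% of all probes called. The slopes of C3 and Hamp ended without any 1 of the NE 10 mM libraries, that of C3 also without 0.01 mM replicate 3 (-0.17 to -0.10 and 0.13 to 0.21). The hepatocyte marker sum at 10 mM NE was 5761 to 7879 CPM, with the lowest median of the 35 groups. The 5 cholangiocyte marker probes, of which the 2 to Krt7 were under 1 CPM, summed to 219 to 278 CPM against 627 to 721 in medium, without overlap. The part of either marker list was not tested.

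Other liver-defence genes went both ways at 10 mM NE, where 34% of all probes were called against medium. Against medium 8 of 23 acute phase probes rose and 4 fell (median 0.31). Kininogen Kng1 (2.41), Mug1 (1.76) and C-reactive protein, Crp (1.43), rose, and the metalloreductase Steap4 (-2.41), Lcn2 (-0.75) and Itih3 (-0.72) fell. Among 24 complement probes 10 rose, such as Masp2 (3.09), Masp1 (1.63) and Cfb (1.39), and 4 fell, such as C2 (-2.14) and clusterin, Clu (-2.09). Around hepcidin, 4 of 10 regulator probes rose, with Tfrc (1.46), Hjv (1.45) and Tfr2 (0.92), and Tmprss6, the protease that cleaves hemojuvelin, fell (-1.07). Of 18 signalling probes 6 rose, among them the shared receptor chain Il6st (1.24), Cebpd (0.86) and Jak2 (0.81), and 2 fell, Il1rn (-0.64) and the oncostatin M receptor Osmr (-0.58), a share not far from that of all probes. The glucocorticoid-response genes Tat (1.89), Fkbp5 (1.19) and Sgk1 (0.84) rose, 3 of 4 tested.

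With 1NP 1 member was called against medium at 3 mM and 3 at 10 mM, and at 10 mM 7 probes were lower than DMSO. At 3 mM C4bpb, at 8.41, 9.37 and 13.2 CPM, was higher than in medium (1.51 ± 0.33, adjusted p = 0.0499), where 0.223% of all probes were called. This call ended without medium replicate 4 or 5 or 1NP replicate 2 or 3 (1.26 to 1.65). Against DMSO only Orm1 was called (-1.03, 0.57% of all probes), and leaving out any 1 of the 6 libraries ended it (-1.08 to -0.97). DESeq2 called 3 lower. Without 1NP 10 mM replicate 3 edgeR called 4 lower, with 404 of all probes called against 69 with it. At 10 mM A2m_35710 was at 316, 354 and 48.2 CPM and C3 at 711, 641 and 173 CPM, replicate 3 being the low one in each. Hamp was at 5.4, 8.69 and 148 CPM, so its high mean rested on that replicate alone. Against medium Hamp was called higher (3.17 ± 0.88), C3 lower (-1.0 ± 0.27) and Orm1 lower (-1.05 ± 0.22), where 10.2% of all probes were called.

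All 3 calls depended on single wells. The Hamp call ended without 1NP replicate 3, where the difference was 0.14, and without medium replicate 5 or 6. C3 ended without medium replicate 5 or 6 (-1.33 to -0.62) and was -0.62 with a call without 1NP replicate 3, where 82 of all probes were called against 1237 with it. Orm1 ended without 1NP replicate 3 (-0.87) or medium replicate 5. Leaving out medium replicate 5 ended every call of 1NP against medium at any concentration. Against DMSO 7 probes were lower at 10 mM (2.17% of all probes), from -1.60 ± 0.27 for Serpina3m to -2.44 ± 0.42 for A2m_7932, and Hamp was not called (1.52 ± 0.77). Against the 4 lowest concentrations (6.06% of all probes called) Orm1 (-1.08), Hp (-0.95) and C3 (-0.94) were lower and Hamp (3.17) higher. Without replicate 3 only C3 was called (-0.54), with Hamp at 0.14, and 80 of all probes were called against 730 with it. The slope was called for Hamp (0.39) and Orm1 (-0.12), with 4.77% of all probes, and for neither without that replicate. Hepatocyte markers summed to 7158 to 8163 CPM at 10 mM 1NP and to 8133 to 11517 in the medium of set 2. Cholangiocyte markers summed to 243 to 756 CPM against 842 to 1001. Their part was not tested.

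The nitroalkanes were compared with each other at matched concentrations. NE and NM shared a set and controls, and 8 probes at 8 concentrations gave 64 tests. From 0.003 to 3 mM no probe was called by edgeR in the 56 tests (1, 0, 2, 4, 5, 1 and 4 probes at an unadjusted p under 0.05), where 0%, 0%, 0.00878%, 0%, 0%, 0% and 0.0179% of all probes were. DESeq2 called 2 lower at 3 mM and none at the others. Without the libraries apart edgeR also called 2 lower at 3 mM, with 180 of all probes called against 2 with them. The differences of NE from NM ran from -1.20 to 0.73, and the lowest adjusted p was 0.12, for A2m_35710 at 3 mM (-1.19 ± 0.16, 95% interval -1.56 to -0.83). These misses do not show that the compounds act alike.

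At 10 mM 5 of the 8 differed, where 11.7% of all probes were called. With NE, A2m_35710 was at 57.6, 49.7 and 54.3 CPM, against 602, 589.8 and 401 CPM with NM, a log2 difference of -3.25 ± 0.26 (95% interval -3.84 to -2.66, adjusted p = 0.00046). A2m_7932, at 419, 239 and 309.5 CPM and 3135, 2954 and 1562 CPM, differed by -2.92 ± 0.38. C3 was at 335, 249.9 and 289.6 CPM in the NE wells, against 1191, 1027 and 1447 CPM in the NM wells (-2.0 ± 0.24). For these 3 probes the groups were far apart, and leaving out any library kept the call. Hamp, at 26.2, 24.0 and 24.5 CPM with NE against 6.77, 5.59 and 2.34 CPM with NM, was higher by 2.38 ± 0.40, a call that ended without NE replicate 1 (2.04 to 2.69). Orm1 (-0.91 ± 0.25, adjusted p = 0.048) lost its call without any of 5 of the 6 libraries, all but NM replicate 3 (-1.13 to -0.71). Hp (-0.94 ± 0.70, interval -2.53 to 0.65) was not called, with an NM well at 5.99 CPM that stood apart, and without both libraries apart it was called at -1.15. In that refit 4577 of all probes were called, against 1352 with those libraries in. C4bpb (-0.14, interval -1.15 to 0.87) and Serpina3m (0.50, interval -0.05 to 1.05) were not called with all libraries in. In 3 of the lists the 10 mM groups differed at 3 higher and 3 lower of 23 acute phase probes, 5 and 2 of 23 complement probes and 2 and 1 of 10 hepcidin regulators, with Hjv at 2.14 and Tmprss6 at -1.15. Cholangiocyte markers summed to 219 to 278 CPM with NE and 817 to 1214 with NM, and their part was not tested.

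**Figure D4:**
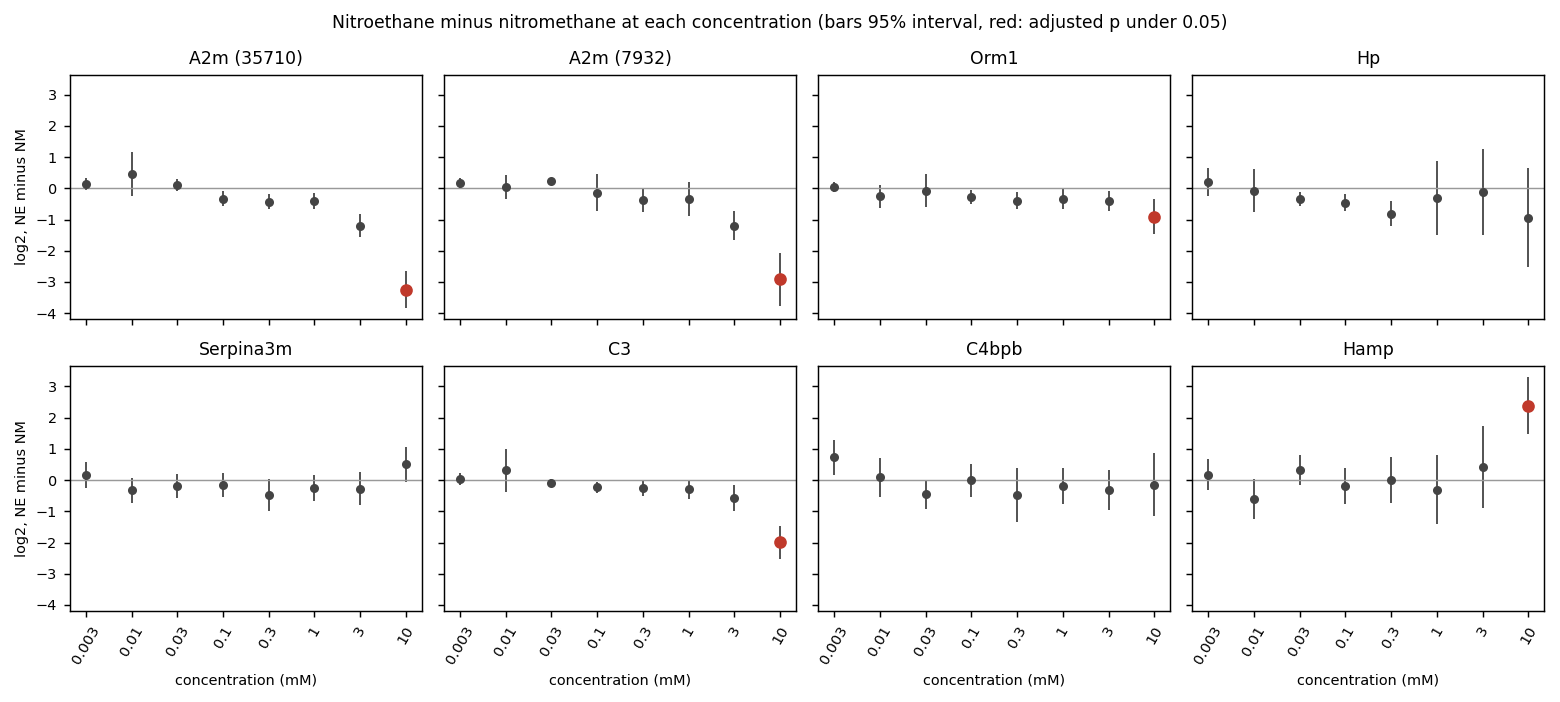
Log2 difference of NE from NM at each concentration in mM, spaced evenly, for the 8 probes, with 95% intervals as bars and red points at an adjusted p under 0.05. The called points are the 5 at 10 mM, 4 of them under 0 and Hamp above it.

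1NP was in another set, so it was compared through the controls of each set at 10 mM, in 4 tests of 8 probes. None of the 8 was called by edgeR or DESeq2 (2, 2, 3 and 3 at an unadjusted p under 0.05), and 0% of all probes were. Relative to DMSO, 1NP minus NE was 1.95 ± 0.72 for A2m_35710 (95% interval 0.35 to 3.54) and 0.87 ± 0.52 for C3 (-0.27 to 2.00), wide intervals in which 1NP replicate 3 weighs. Without the libraries apart 4 probes were called: A2m_35710 at 2.30, A2m_7932 at 1.63 and C3 at 1.10, a smaller drop with 1NP than with NE, and Hamp at -1.27, which had been 1.85 with them. In that refit 4312 of all probes were called, where 11900 were tested with those libraries in. Calls were thus common among all probes there. Relative to medium the A2m probes (2.46 and 2.37) and C3 (0.89) were called without the libraries apart, with 1836 of all probes. Against NM, 1NP minus NM relative to DMSO was -1.13 ± 0.50 for C3 and -0.70 ± 0.28 for Orm1. Without the libraries apart A2m_35710 (-1.01), C3 (-0.62) and Orm1 (-0.59) were called, with 50 of all probes. Relative to medium none was.

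With the receptor agonists single members moved apart from the others. DMSO was the vehicle, and all 8 probes were lower in medium than in DMSO in set 1. A difference of these wells from medium alone therefore does not separate compound and vehicle. With BAP alpha-2-macroglobulin was lower than in DMSO and in medium, and Serpina3m was not. A2m_35710 was at 164, 202 and 159 CPM and Serpina3m at 57.6, 63.8 and 44.0 CPM, the highest Serpina3m level of the study. Against DMSO 5 probes were lower (9.17% of all probes), both of A2m (-2.57 ± 0.19 and -2.46 ± 0.25), Hamp (-1.77 ± 0.25), C3 (-0.77 ± 0.10) and C4bpb (-0.77 ± 0.19). Serpina3m did not differ from DMSO by the test (0.61 ± 0.27). Against medium, A2m was still lower (-1.50 ± 0.18 and -1.28 ± 0.24), and Serpina3m (1.96 ± 0.29), C4bpb (1.70 ± 0.22), Hp (1.02 ± 0.29) and Orm1 (0.47 ± 0.13) were higher, where 19.7% of all probes were called. The C4bpb call against DMSO ended without DMSO replicate 1 or BAP replicate 1 (-0.91 to -0.65), the Hp call against medium without medium replicate 3 or BAP replicate 2 (0.79 to 1.18), and the Orm1 call without medium replicate 3 (0.36 to 0.57). Of 23 other acute phase probes 13 rose against medium and 2 fell, with Mug2 (1.87), Fga (1.29) and ceruloplasmin, Cp (1.25), highest. Against DMSO 3 rose and 8 fell. The hepatocyte marker sum with BAP was 10030.1 to 11138 CPM, below DMSO, and the cholangiocyte marker sum 370.1 to 425 CPM, below both DMSO (541 to 621) and medium (627 to 721), and their part was not tested.

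BAP was also set against the NM and NE wells of its own plate row, which received other compounds but shared the row. There A2m was lower (-1.34 ± 0.17 and -1.32 ± 0.23) and Serpina3m (1.80), Hp (1.17), C4bpb (1.11) and Orm1 (0.62) were higher, all called, where 12% of all probes were.

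With CITCO most members were higher than in medium and none was called higher than in DMSO. Hamp and C4bpb were lower than in DMSO at both doses. At 20 µM A2m_35710 was at 1381, 1599 and 1109 CPM, every well above every DMSO well, and A2m_7932 at 4584, 7100.2 and 4876 CPM. Against DMSO no A2m probe was called at either dose. Hamp, at 7.42, 9.96 and 12.7 CPM with 10 µM and 12.4, 8.79 and 8.57 CPM with 20 µM, was lower than DMSO by -1.63 ± 0.25 and -1.64 ± 0.25. C4bpb was lower by -0.98 ± 0.20 and -1.29 ± 0.20, and C3 with 10 µM by -0.48 ± 0.10. That made 3 calls with 10 µM (0.149% of all probes) and 2 with 20 µM (0.843%). With 10 µM the C4bpb call ended without any 1 of 5 libraries, all but DMSO replicate 3 (-1.11 to -0.87), and the C3 call without any 1 of the 6 (-0.51 to -0.45).

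Against medium 5 probes were higher with 10 µM CITCO (2.58% of all probes) and 6 with 20 µM (14.7%). With 20 µM these were A2m (1.5 ± 0.18 and 1.45 ± 0.24), C4bpb (1.18 ± 0.22), Hp (1.02 ± 0.29), Orm1 (0.76 ± 0.13) and C3 (0.75 ± 0.10). The Hp call ended without medium replicate 3 or CITCO replicate 2 (0.78 to 1.20). Hamp and Serpina3m were called at neither dose. Against the NM and NE wells of its plate row, both A2m probes (1.25 and 1.31), Orm1 (1.05), Serpina3m (0.80) and C3 (0.53) were higher with 10 µM CITCO, where 1.17% of all probes were called. The hepatocyte marker sum was 11449 to 13204 CPM with 20 µM, between the medium and DMSO controls and overlapping DMSO at its upper end.

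With rifampin most group means lay between those of the 2 controls. Means below that of medium were Orm1 at both doses, Hamp with 20 µM and Serpina3m with 40 µM. With 20 µM 7 probes were lower than DMSO (2.87% of all probes), all but A2m_7932, with C4bpb (-1.45 ± 0.20) and Hamp (-1.52 ± 0.25) lowest. The calls of A2m_35710 (-0.73), Hp (-1.25) and Serpina3m (-1.22) each ended without DMSO replicate 1 or 2 or rifampin replicate 1 or 3 (-0.86 to -0.62, -1.37 to -1.08 and -1.45 to -1.03). With 40 µM 4 were lower (1.69%): Serpina3m, at 9.11, 15 and 11.9 CPM (-1.59 ± 0.30), C4bpb (-1.45 ± 0.20), Hamp (-1.03 ± 0.24) and Orm1 (-0.87 ± 0.13). The Serpina3m call ended without rifampin replicate 1 (-1.82 to -1.40) and the Hamp call without DMSO replicate 3 or rifampin replicate 1 or 3 (-1.32 to -0.78). Against medium C4bpb was higher with 20 µM (1.02 ± 0.22, 0.273% of all probes), a call that ended without any library but rifampin replicate 3 (0.91 to 1.21). With 40 µM C4bpb (1.02 ± 0.23), A2m_35710 (0.83 ± 0.18) and C3 (0.57 ± 0.10) were higher (3.31% of all probes), C4bpb not without rifampin replicate 2 (0.83 to 1.14).

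With WY-14643 A2m and Orm1 were lower than in DMSO in both sets, and no member was called lower than in medium. In set 1 A2m_35710 was at 411, 393 and 341 CPM (-1.50 ± 0.18) and in set 2 at 528, 515 and 482 CPM (-1.17 ± 0.11), each under its DMSO wells. Orm1 was lower by -1.04 ± 0.13 and -0.86 ± 0.13. In set 1 A2m_7932 (-1.67), C4bpb (-1.67), C3 (-0.68) and Serpina3m (-1.18) were lower too, 6 calls in all (4.88% of all probes), of which Serpina3m ended without DMSO replicate 1 or 2 or WY-14643 replicate 1 or 2 (-1.40 to -0.97). In set 2 the third call was A2m_7932 (-1.26), with 0.901% of all probes called, and fitting all groups of the set together left none.

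Against medium C4bpb was higher with WY-14643 in both sets, by 0.80 ± 0.23 (5.8% of all probes) and 1.44 ± 0.26 (16.9%). The first of these calls ended without any medium library or WY-14643 replicate 2 (0.62 to 0.91). Against DMSO C4bpb was lower in set 1. In set 2 it was not called against DMSO, with a mean of 9.97 CPM against 15.2 in DMSO and 3.86 in medium. Hamp was at 18.5, 20.9 and 19.1 CPM in set 1, every well above every NM well and every NE well under 10 mM, and at 18.1, 12.9 and 15.3 CPM in set 2. It was higher than medium in set 2 (1.29 ± 0.34), a call that ended without medium replicate 5 or WY-14643 replicate 4 (0.94 to 1.90), and A2m_7932 (0.65) and C3 (0.38) were higher there, C3 not without any library but medium replicate 6 (0.31 to 0.52). Among the 8 probes Hamp alone was higher with WY-14643 of set 1 than in the NM and NE wells of its row (1.83, 1.72% of all probes called). In the same kind of comparison A2m_35710 alone was higher with 20 µM rifampin (0.81, 0.0937% of all probes).

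**Figure D5:**
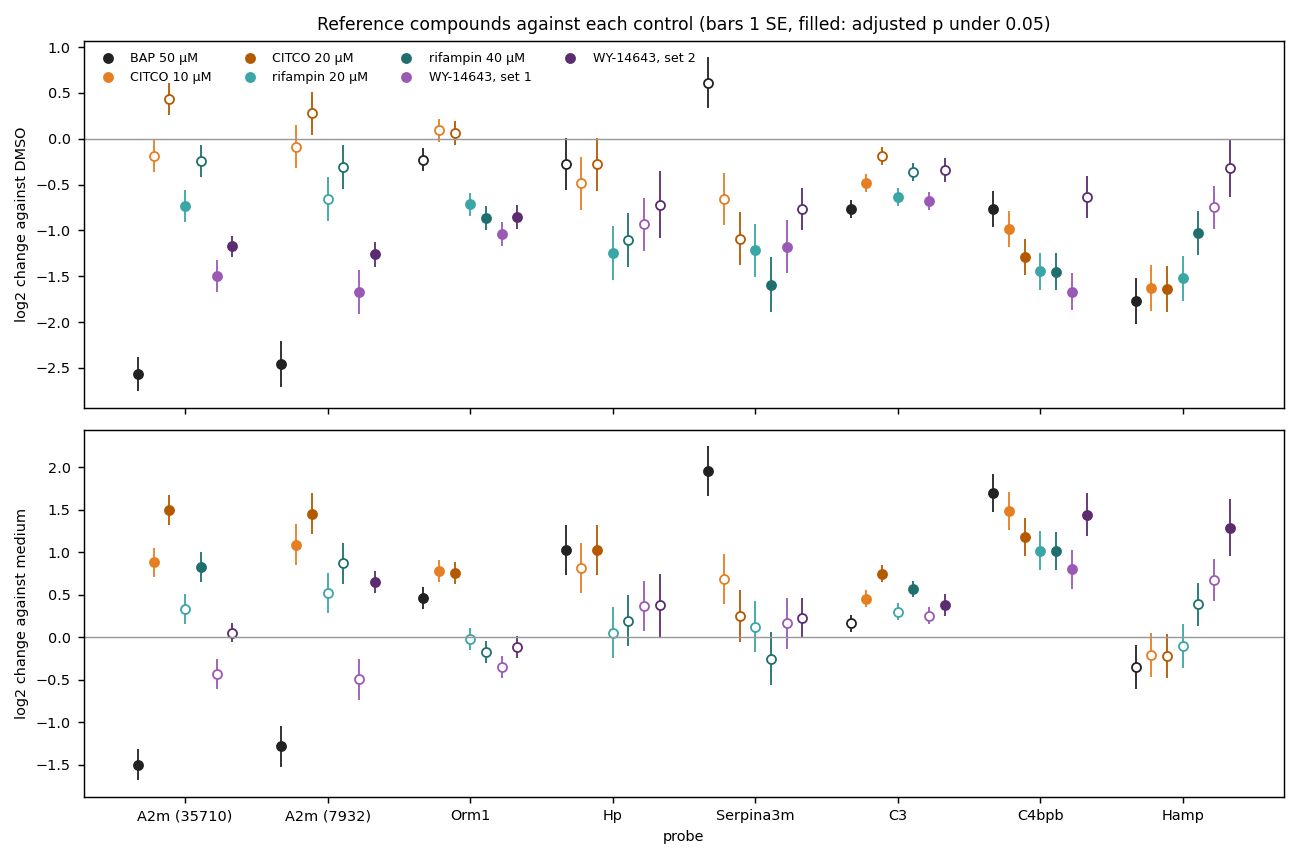
Log2 difference of each reference compound from DMSO and from medium of its own set for the 8 probes, with SE bars and filled points at an adjusted p under 0.05. BAP has A2m_35710 at -2.57 and -1.50 and Serpina3m at 0.61 and 1.96, and 20 µM CITCO has A2m_35710 at 1.5 against medium.

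The members varied together in part. Across the 24 group means of set 1, which share controls and plate rows, the 2 A2m probes had r = 0.982 on the log2(CPM + 1) scale (0.922 over the 11 groups of set 2), with A2m_7932 reading 1.65 to 7.28 times A2m_35710 in single libraries (median 4.49). A2m_35710 varied with C3 (r = 0.876 and 0.95) and Orm1 with Hp (0.879 and 0.913). Hamp went with no other member, with r from -0.06 to 0.42 in set 1. Among 7620 probes with a mean of at least 10 CPM, those most like Hp were Apoc3, an apolipoprotein (r = 0.983 and 0.910), C4bpa (0.893 and 0.813) and Wfdc21 (0.884 and 0.749). Those most like Orm1 were albumin, Alb (0.913 and 0.786), Apoc3 (0.90 and 0.913) and Itih3 (0.897 and 0.837). C3 went most with Bcl10 (0.949 and 0.791), Nfkb1 (0.908 and 0.939) and Trappc1 (0.907 and 0.596). After A2m_35710, A2m_7932 went most with Epcam (0.901 and 0.799) and Crct1 (0.877 and 0.616). A2m_35710 went with AABR07020815.1 (0.880 and 0.774) after A2m_7932. C4bpb went most with Serping1 (0.886 and 0.781), Cxcl10 (0.885 and 0.858) and the fibrinogen chain Fgg (0.866 and 0.830). Serpina3m went most with plasminogen, Plg (0.882 and 0.807), Apoc1 (0.839 and 0.843) and Car8 (0.824, but 0.347 in set 2). Hamp went most with LOC100125364 (0.797 and 0.895), Crp (0.750 and 0.825) and Bcl6 (0.750, but -0.303 in set 2).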

How the data were processed

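TempO-Seq libraries of cultured rat hepatocytes were analysed from the raw probe counts that the authors deposited, 1 column a library, named in the labels. Per the submitters' processing notes, FastQC, Bowtie, R 3.5.3 and DESeq2 1.28.1 were used. Which step used each tool, with what settings and against which build, was not given in the sources used here. The labels call the panel human, but the probe names are rat symbols.

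Samples were grouped by title, and set 1 and set 2 were analysed separately because they have their own controls. Counts were tested with edgeR 4.0.16 in R 4.3.3 (filterByExpr with a minimum count of 10 and a minimum total of 15, TMM factors, robust quasi-likelihood fit, limma 3.58.1), and p-values were adjusted by Benjamini-Hochberg over all probes tested. Each nitroalkane was fitted with each of its controls in turn, 27 libraries a fit, the NE to NM differences with 6, and the differences between sets with 12. A standard error is the log2 difference divided by the square root of the F statistic and is approximate. A 95% interval uses the t quantile that the p-value implies. CPM is the count scaled to a library total of 1000000. The scripts were tested on simulated counts. Alternatives were DESeq2 1.42.0, RLE factors, no filter, all groups or only 2 groups in a fit, a replicate block and leaving out each library. Leaving out libraries that stood apart, and the test between sets of medium against DMSO, were chosen after seeing the data.

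All 7 members are named. Of other lists, up to 3 called genes in each direction with the largest change are named, besides some named by role. The members and lists were chosen with earlier results of these data known. Every pair of replicates differed by more than sampling noise (lowest chi-square per degree of freedom 2.82), so none was counted as 1. An interval or call covers the spread between wells of 1 lot. In the largest library 3 counts are 0.270 CPM and in the smallest 0.548. List genes for which no probe was found here are Ahsg, C5, Foxa2, Il6r, Kng1l1, Kng2, Nr3c1, Per1, Serpina3n and Tsc22d3, with the markers Cd3e, Cd79a, Hba1 and Lrat. The promoter match of 1 member is not reported here.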

Additional observations from a re-analysis of the deposited data

Results flagged for a closer look

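At 10 mM, 5 member probes differed between NE and NM by edgeR's test of the difference itself (6 libraries, adjusted p under 0.05), where 11.7% of all probes were called. They were A2m_35710 at -3.25, A2m_7932 at -2.92, C3_8175 at -2.0 and Orm1_9400 at -0.91 on the log2 scale, all lower with NE, and Hamp_50326 at 2.38, higher with NE. The libraries of the 2 groups did not overlap at any of the 5 probes. These probes were picked by the test on the same libraries, so that adds no support, and the share of all probes without overlap was not counted. The Hamp and Orm1 calls were lost without single libraries, Hamp without NE replicate 1 and Orm1 without any 1 of 5 libraries. Beyond the rule for libraries that stood apart, groups of 3 were not searched for single outlying wells at these probes.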

How the results depend on the processing

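Counts of member probe calls, over 8 probes and all groups of a comparison, moved by more than 1.5 times as follows. Medium against DMSO in set 1 went from 8 to 4 with only the 2 groups fitted. Set 1 reference compounds against DMSO went from 27, all lower, to 13 against wells of the same plate row, 11 of them higher and 2 lower. That comparison was made for 4 groups only, without 20 µM CITCO and 40 µM rifampin, so the 2 counts cover different groups. WY-14643 of set 2 against DMSO went from 3 to 5 without the filter, 5 with 2 groups and 0 with all groups fitted, and against medium from 4 to 1 with all groups. NM against medium went from 4, all higher, to 1 lower with 2 groups and to 7, 5 higher and 2 lower, without the libraries apart, its slope from 0 to 1 without those, and 10 mM against its 4 lowest concentrations from 2 lower to 1 without the filter and to 2 higher and 1 lower without the libraries apart. NE against medium went from 10 to 18 without the filter, and its slope from 4 to 2 without the libraries apart. For 1NP, calls against DMSO went from 26 to 41 with DESeq2, 41 with 2 groups and 52 without the library apart, those against medium from 4 to 11 without the filter and 1 with 2 groups, the slope from 2 to 1 with DESeq2 and 0 without the library apart, and 10 mM against the lowest 4 from 4 to 1 without it. NE against NM went from 5 to 9 without the filter and 8 without the libraries apart. 1NP against NE went from 0 to 4 relative to DMSO and from 0 to 3 relative to medium, both without the filter and without the libraries apart, and 1NP against NM relative to DMSO from 0 to 3 without those. The difference between sets in medium against DMSO went from 0 to 1 without the filter. The cause was not tested.

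Leaving out 1 library at a time gave, for medium against DMSO, 7 to 8 in each set, and for set 1 reference compounds 20 to 30 against DMSO and 16 to 23 against medium. WY-14643 of set 2 had 3 to 5 against DMSO (5 without medium replicate 6) and 2 to 4 against medium (2 without WY-14643 replicate 4 or medium replicate 5). NM had 39 to 49, 4 to 4, 0 to 0 (slope) and 0 to 2 (10 mM against the lowest 4), with 0 in the last without NM 10 mM replicate 2 or 3. NE had 51 to 58, 8 to 12, 2 to 4 and 6 to 6, with 2 for the slope without any 1 of the 10 mM libraries. 1NP had 14 to 52, 0 to 5, 0 to 2 and 1 to 5. Its calls against DMSO were 14 without DMSO replicate 6, 15 without replicate 4 and 52 without 1NP 10 mM replicate 3, and its slope and 10 mM counts of 0 and 1 were without that last library. NE against NM had 3 to 9 (3 without NE 10 mM replicate 1, 9 without NM 0.1 mM replicate 3), and the differences of 1NP from NE 0 to 4 and 0 to 3, reached without 1NP 10 mM replicate 3, and from NM 0 to 0. Hamp in 1NP minus NE at 10 mM relative to DMSO reversed from 1.85 to -1.16 without 1NP 10 mM replicate 3 and to -1.27 without all libraries apart.

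The replicate numbers were not taken to pair the samples, since not every pair of groups had a correlation over 0.1: deviations of same-numbered libraries correlated at -0.904 to 0.919 (median 0.014) over 828 pairs of groups in set 1, and at -0.204 to 0.698 (median 0.124) over 93 in set 2, where 53 were over 0.1 and the number is also the plate column in the library names. With the replicate block, the calls of set 1 reference compounds against DMSO went from 27 to 32 and the 1NP slope from 2 to 1. Single member results that were called stayed called under the block in most cases, with 3 lost and 11 gained.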

Other observations

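At 3 mM NE, against medium and with 11.5% of all probes called, 9 of 23 other acute phase probes rose and 1 fell, among them Mug2 (2.26), Crp (1.37) and Mug1 (1.30) upward and Lcn2 (-0.53) downward, in the wells where both A2m probes were lower. Of 24 complement probes 6 rose, led by Mbl1 (1.68), Masp2 (1.60) and C8b (1.49), and C2 fell (-0.62). Among hepcidin regulators Hjv rose (2.16) and the inhibitory Smad7 fell (-2.25). The factor Cebpa, which drives hepatocyte genes, rose at 3 mM (0.89) and 10 mM NE (1.63).

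With 20 µM CITCO 13 acute phase probes of 23 rose against medium and 2 fell, where 14.7% of all probes were called. All 3 fibrinogen chains were among those higher than medium, Fga (1.91), Fgb (1.73) and Fgg (1.59). With 40 µM rifampin they were higher than medium by 1.13, 1.11 and 0.95 (3.31% of all probes called). Fga and Fgb were also lower in medium than in DMSO of set 1, so these differences from medium do not separate compound and vehicle. With BAP Tnf (2.67) and the iron exporter Slc40a1 (1.25) were higher than medium and Masp1 (-1.11) lower, where 19.7% of all probes were called.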
